A study of Mus musculus with 4 samples.

Results

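The genes described here encode the proteins of the cardiac sarcomere and of the Z-disc that borders it. They were 33 genes given as a list of symbols that was drawn up with earlier results of these data known, and all 33 were among the 18193 genes measured. Transcript levels came from Affymetrix 3' expression arrays of mouse heart, 4 arrays in all. The 2 knock-in arrays carried RNA from hearts labelled GSK-3beta S9A, in which serine 9 of glycogen synthase kinase-3 beta is replaced by alanine, from mice aged 3.5 months. The 2 wild-type arrays carried RNA from hearts of mice aged 3.6 months. Both groups were of strain C57B6 and at baseline, with no treatment. The labels do not give the sex, the number of allele copies, the hour of collection or whether a sample is 1 animal or a pool, and p-values therefore rest on the spread between arrays, part or all of which may be technical. Phosphorylation of serine 9 inhibits GSK-3beta, and the alanine takes that site away. The comparison asked how the contractile genes stood in hearts that carry the replacement. Each gene was represented by its brightest probe set, a group of short oligonucleotides that together report 1 transcript, and values are on the log2 scale, where a difference of 1 is a doubling.

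The sarcomere is the repeating unit of the myofibril. Thick filaments of myosin, held at the M-band by myomesins, slide along thin filaments of actin, and calcium bound by troponin moves tropomyosin along the actin to let myosin attach. Thin filaments are anchored in the Z-disc by alpha-actinin, titin spans from the Z-disc to the M-band as a spring, and desmin and filamin C tie the Z-disc to its surroundings. Many of these proteins exist as ventricular, atrial and skeletal isoforms encoded by separate genes. Their transcription in heart muscle is known to draw on SRF, which binds the CArG box, and on MEF2, GATA4 and TEAD factors.

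Promoter sequences are shown because a shared element of these genes can be read in them. RefSeq windows of 300 bases, from 250 before to 50 after an annotated start (GRCm38.p6), were matched for 29 of the 33 genes, as 40 windows, and not for Cryab, Myom2, Myot and Tcap. A CArG box was counted only where the letters matched CCWWWWWWGG exactly, with W for A or T. Such a box lay in the windows of 7 of the 29 genes, or 24.1%, compared with 1.81% of the 27025 genes that have a window. Counted by window, it was in 9 of 40 (22.5%) and in 1.63% of all 32851 windows, where overlapping windows of 1 gene can hold the same match. The 7 genes were Actc1, Fhl2, Ldb3, Myl3, Myl7, Myom1 and Nebl. The 250 bases before the start are given for 4 of them, with the CArG box in capitals. They lie at chr2:114052876-114053125 (minus strand) for cardiac actin, chr9:110763428-110763677 (plus strand) for the ventricular essential light chain, chr11:5898783-5899032 (minus strand) for the atrial regulatory light chain and, for 1 of the 2 overlapping windows of the Z-disc gene Ldb3, chr14:34588608-34588857 (minus strand). In Myl3 and Myl7, shorter capitals mark the letters CATTCC or their reverse complement.
Actc1: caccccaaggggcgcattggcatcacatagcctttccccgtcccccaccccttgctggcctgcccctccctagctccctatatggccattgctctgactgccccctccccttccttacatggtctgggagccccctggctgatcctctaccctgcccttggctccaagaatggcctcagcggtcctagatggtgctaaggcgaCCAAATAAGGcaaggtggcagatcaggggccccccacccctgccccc
Myl3: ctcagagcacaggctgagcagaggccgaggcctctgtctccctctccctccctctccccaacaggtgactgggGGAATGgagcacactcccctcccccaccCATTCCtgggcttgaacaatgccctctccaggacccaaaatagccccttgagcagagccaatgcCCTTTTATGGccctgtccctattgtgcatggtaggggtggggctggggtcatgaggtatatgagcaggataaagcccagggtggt
Myl7: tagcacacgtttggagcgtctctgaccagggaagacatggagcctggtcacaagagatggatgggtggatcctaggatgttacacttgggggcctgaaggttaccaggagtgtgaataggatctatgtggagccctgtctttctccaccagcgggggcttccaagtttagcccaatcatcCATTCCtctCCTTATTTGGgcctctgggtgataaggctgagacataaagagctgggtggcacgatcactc
Ldb3: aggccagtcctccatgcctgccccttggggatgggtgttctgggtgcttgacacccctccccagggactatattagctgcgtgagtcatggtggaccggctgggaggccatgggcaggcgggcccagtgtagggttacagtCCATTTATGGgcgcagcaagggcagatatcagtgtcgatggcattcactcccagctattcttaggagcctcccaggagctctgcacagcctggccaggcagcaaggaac
The boxes began at -47 in Actc1, -85 in Myl3, -61 in Myl7 and -109 in Ldb3, where 0 is the first transcribed base. Lmod2 and Tmod1, the thin filament genes with the largest differences between genotypes, had no exact match to the CArG box in their windows. The same held for 22 of the 29 genes. Lmod2 and Tmod1 are shown as examples without the box, at chr6:24597521-24597770 (plus strand) and chr4:46038972-46039221 (plus strand). The only exact match to a searched motif in them, CATTCC at -163 in Tmod1, is in capitals. Near matches to the CArG box, such as ctaaatatgg in Lmod2 and ccctatatgg in Actc1, were not counted, so the lack of a box depends on the strict pattern.
Lmod2: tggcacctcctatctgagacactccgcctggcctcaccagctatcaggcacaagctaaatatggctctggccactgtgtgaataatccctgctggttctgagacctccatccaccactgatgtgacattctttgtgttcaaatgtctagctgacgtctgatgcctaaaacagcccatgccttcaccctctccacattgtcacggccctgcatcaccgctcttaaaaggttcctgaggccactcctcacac
Tmod1: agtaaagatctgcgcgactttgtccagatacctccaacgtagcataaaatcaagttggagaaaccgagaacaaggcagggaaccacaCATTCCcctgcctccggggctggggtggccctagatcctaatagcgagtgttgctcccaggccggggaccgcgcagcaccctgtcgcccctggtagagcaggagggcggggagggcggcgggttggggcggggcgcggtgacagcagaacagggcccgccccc
The other motifs were searched on both strands in the same windows. A MEF2 site was found for 4 of 29 genes (Fhl2, Mybpc3, Myoz2 and Ttn), compared with 3.70% of all genes. The GATA motif AGATAA was found for 8 of 29 against 12.7%, the M-CAT motif CATTCC for 9 against 16.6%, and TATAAA for 5 against 15.7%. A match is only a run of letters, not a measured binding site. The 7 genes with a CArG box differed between genotypes by -0.21 to 0.16 (median 0.036), and the other 22 by -0.24 to 0.32 (median 0.049), so the ranges overlapped.

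The arrays carried heart RNA by their markers. Myh6, the adult cardiac myosin heavy chain, was at 14.41 and 14.50 in the wild-type and 14.52 and 14.55 in the knock-in arrays, while the fast skeletal heavy chain Myh4 was between 4.16 and 4.37. Both chambers were represented, since the atrial calcium pump regulator Sln was at 10.32 and 10.14 in the wild-type and 10.34 and 10.05 in the knock-in arrays. Array medians ran from 5.97 to 6.04, and 3' minus 5' values of the Gapdh control probe sets from 0.54 to 0.77 with knock-in 1 highest and knock-in 2 lowest. For Actb these values were 0.45 and 0.39 in the wild-type and 0.37 and 0.28 in the knock-in arrays, so the knock-in arrays were lower, and the part of RNA quality in the results was not tested. The 6 hepatocyte markers averaged 6.38 and 5.92 in the wild-type and 7.43 and 8.09 in the knock-in arrays, and their part in the results below was not tested. In whole heart, fewer cells of a type and less RNA per cell cannot be told apart.

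None of the 33 sarcomere and Z-disc genes passed the test between genotypes, where 0.00550% of all genes, a single gene, passed. The smallest adjusted p was 0.515 (limma, Benjamini-Hochberg over all genes). The mark of an unadjusted limma p under 0.05 was met by 4, Myot, Lmod2, Tmod1 and Mybphl, all higher in knock-in hearts, where 4.40% of all genes met that mark in the higher and 2.99% in the lower direction (7.39% in either). The 4 amount to 12.1% of the list. Without knock-in 2 only Myom1 met it, in the lower direction, without wild-type 1 only Lmod2 and Flnc, and without wild-type 2 only Myot and Tnnt1. With an intensity trend and robust prior 8 met it, 5 higher and 3 lower, where 8.35% of all genes did, and among genes above the median alone 7 of 32 did, where 12.1% of such genes did. Mybphl was not among the 8 with the trend and robust prior, nor among the 3 that met it with the replicate number as a block.

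The differences were small and leaned upward. Over the 33 genes they ran from -0.24 (Flnc) to 0.41 (Myot) with a median of 0.053, while the median of all genes was 0.00024. Of the 33, 25 were higher and 8 lower, or 20 and 12 after a second quantile normalization. That step put Tpm1 at 0, because Tpm1 was the highest value of every array and such values are made equal. The median was 0.028 over the 482 genes with a mean above 12, of which 307 were higher and 175 lower, a comparison chosen after the values were seen because 25 of the 33 genes were that bright. All 33 differences had 95% intervals, not adjusted for the number of genes, that stayed within 1 log2 unit of 0. The bound farthest from 0 was 0.71, a 1.63-fold difference, and 27 of the intervals stayed within 0.5. The arrays of the 2 genotypes did not overlap in 22 of the 33 genes, 17 with knock-in higher and 5 with knock-in lower, where 36.5% of all genes did not (19.6% higher and 17.0% lower). Those 22 are 66.7% of the list, compared with 51.2% of the genes with a mean above 12. Knock-in 2 was the highest array for 18 of the 33 genes and wild-type 1 the lowest for 15. Without knock-in 2 the median was 0.020.

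**Figure D1:**
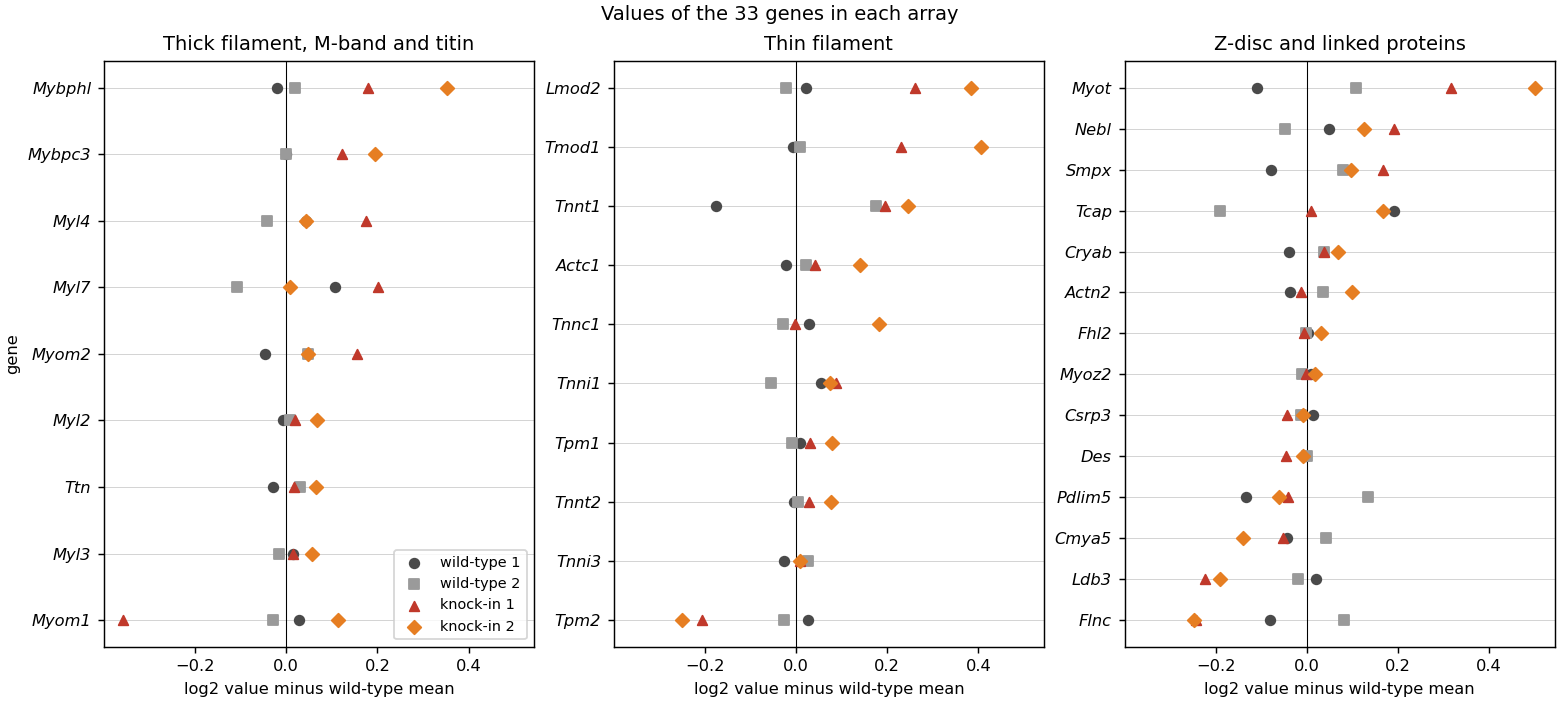
Each gene's log2 value in the 4 arrays after subtraction of its wild-type mean, on the horizontal axis, for thick filament and M-band genes (left), thin filament genes (middle) and Z-disc genes (right), with genes sorted by the difference between genotypes. Knock-in arrays (triangles and diamonds) lie to the right of both wild-type arrays (circles and squares) for Myot, Lmod2, Tmod1 and Mybphl and to the left for Tpm2, Ldb3 and Flnc, while points lie close together for Myoz2, Fhl2 and Tnni3.

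Among the 9 thick filament, M-band and titin genes, 8 had higher knock-in means and 1 a lower one (Myl2 turned lower after a second quantile normalization and Ttn with averaged probe sets), with a median difference of 0.10, and none passed. The main ventricular light chains were close in all arrays. Myl2, the ventricular regulatory light chain that is phosphorylated to tune contraction, was at 14.67 and 14.69 in the wild-type and 14.70 and 14.75 in the knock-in arrays. Its difference was 0.044 (SE 0.095), with a 95% interval of -0.19 to 0.27. Myl3, the ventricular essential light chain that stiffens the myosin lever arm, was at 14.71 and 14.68 against 14.71 and 14.76. The wild-type 1 and knock-in 1 values of Myl3 almost coincided, and the whole range across the 4 arrays of either gene was under 0.1.

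The larger differences of this group lay in the myosin binding proteins. Mybpc3, cardiac myosin binding protein C, which holds myosin heads back and is often mutated in inherited cardiomyopathy, was at 14.10 and 14.10 in wild-type and 14.23 and 14.30 in knock-in hearts. The difference of 0.16 (SE 0.096) was wider than the gap within either genotype, but its adjusted limma p was 0.784. Mybphl, a shorter relative found mainly in atria and the conduction system, was at 7.25 and 7.29 against 7.45 and 7.63. It was 1.20-fold higher (difference 0.27, SE 0.11, adjusted limma p of 0.655), with both knock-in arrays above both wild-type arrays.

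Titin and the myomesins did not separate the genotypes clearly. Ttn, the giant spring protein, was at 13.76 and 13.82 in wild-type and 13.81 and 13.86 in knock-in hearts, and the groups overlapped. Myom1, which crosslinks myosin at the M-band, was at 12.71 and 12.65 against 12.33 and 12.80, so that knock-in 1 stood below the other 3 arrays and knock-in 2 above them. Its difference was -0.12, but -0.36 to 0.11 when each array was left out in turn, with the turn to a positive value without knock-in 1. Myom2, the second myomesin of adult heart, differed by 0.10.

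The 10 thin filament genes had 9 higher and 1 lower (after quantile normalization Tnni3 turned lower and Tpm1 was at 0, and Tnnt2 turned lower with averaged probe sets), a median of 0.085, and no gene that passed. Those that cap or lengthen the filament's free end differed most. Lmod2, leiomodin 2, which promotes elongation at the pointed end and without which cardiac thin filaments are short, was at 12.50 and 12.45 in wild-type and 12.73 and 12.86 in knock-in hearts. Tmod1, tropomodulin 1, which caps the same end, was at 12.06 and 12.07 against 12.30 and 12.47. The arrays of the genotypes lay apart for both genes. Lmod2 was 1.25-fold higher (difference 0.32, SE 0.10, adjusted limma p of 0.535). Tmod1 was 1.25-fold higher (difference 0.32, SE 0.11, adjusted limma p of 0.562). With each array left out in turn the difference ran from 0.26 to 0.38 for Lmod2 and from 0.23 to 0.41 for Tmod1.

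Actin and the cardiac troponins stayed close together. Actc1, the actin of the cardiac thin filament, was at 14.43 and 14.48 against 14.50 and 14.60, a difference of 0.091. Tnni3, the cardiac inhibitory troponin whose phosphorylation speeds relaxation, was at 14.54 and 14.59 against 14.58 and 14.58. Tnnt2, cardiac troponin T, which anchors troponin on tropomyosin, was at 14.13 and 14.14 against 14.16 and 14.21. The interval of Tnni3, -0.22 to 0.24, was among the narrow ones and its groups overlapped. Tnnc1, the calcium-binding troponin, was at 13.996 and 13.94 against 13.96 and 14.15, a difference of 0.089 (adjusted p of 0.921 from limma), with the groups overlapping.

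The tropomyosins went different ways. Tpm1, the main cardiac tropomyosin, had the highest mean of all probe sets in the table, at 14.92 and 14.90 in wild-type and 14.94 and 14.99 in knock-in hearts. Whether the brightest probe sets were saturated was not tested. Tpm2, beta-tropomyosin, an isoform of slow skeletal muscle, smooth muscle and fetal heart, was at 10.39 and 10.34 against 10.16 and 10.11. It was 1.17-fold lower (difference -0.23, SE 0.096), the only thin filament gene in which the knock-in arrays lay under both of the wild-type ones, at an adjusted limma p of 0.678. Markers of smooth muscle, which also makes Tpm2, were lower in 8 of 10 genes (6 with centred arrays), with a mean between 9.62 and 9.63 in wild-type and between 9.45 and 9.62 in knock-in arrays. The smooth muscle actin Acta2 was at 12.53 and 12.53 against 12.32 and 12.15, and the heavy chain Myh11 at 8.36 and 8.29 against 8.31 and 8.32. Smtn, the marker with the smallest p of the 10, went the other way, at 9.72 and 9.60 against 10.09 and 10.25. Its difference was 0.51, with an adjusted limma p of 0.354. The 8 lower genes include Des, itself a Z-disc gene of the list, which differed by -0.027. The part of smooth muscle in the Tpm2 value was not tested.

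**Figure D2:**
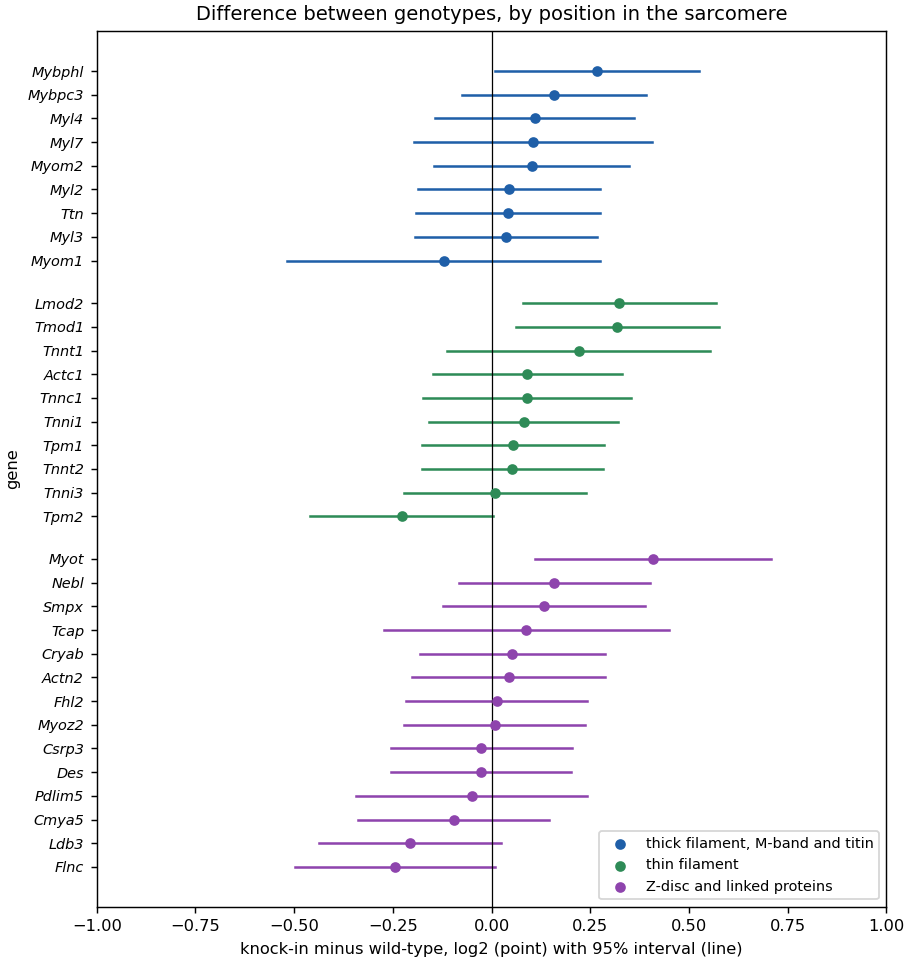
Knock-in minus wild-type difference (log2, horizontal axis) of each gene with its 95% interval from limma, not adjusted for the number of genes, in 3 blocks by position in the sarcomere. The intervals of Mybphl, Lmod2, Tmod1 and Myot lie above 0, those of the other 29 genes reach across it, and all 33 stay within 1 unit of 0.

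Of the 14 Z-disc genes 8 were higher and 6 lower, or 10 and 4 with centred arrays and 6 and 8 after quantile normalization, with a median of 0.011 that was -0.010 after a second quantile normalization. None passed. Myot, myotilin, which crosslinks actin with alpha-actinin and is more typical of skeletal muscle, had the largest difference of all 33 genes. It was at 10.02 and 10.24 in wild-type and 10.45 and 10.63 in knock-in hearts, 1.33-fold higher (difference 0.41, SE 0.12, adjusted limma p of 0.515). Both knock-in arrays lay above both wild-type arrays, although the wild-type arrays were themselves about as far apart as wild-type 2 and knock-in 1.

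Filamin C and a PDZ-LIM protein had the lowest differences among Z-disc genes. Flnc, filamin C, which links the Z-disc to the membrane, was at 11.51 and 11.67 against 11.34 and 11.34. Ldb3, also called ZASP or Cypher, a PDZ-LIM protein that stabilises the Z-disc, was at 13.37 and 13.33 against 13.13 and 13.16. The arrays of the genotypes did not overlap in either gene. Flnc was 1.18-fold lower (difference -0.24, SE 0.10) and Ldb3 1.15-fold lower (difference -0.21, SE 0.095), with adjusted limma p-values of 0.684 and 0.701. Pdlim5, another PDZ-LIM protein, was at 12.73 and 13.002 against 12.83 and 12.81, with both knock-in values between the wild-type ones. Cmya5, myospryn, a large partner of desmin, was at 13.15 and 13.23 against 13.14 and 13.05, and its groups were only just apart.

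The structural core of the Z-disc showed small differences. Actn2, the alpha-actinin that crosslinks actin in the Z-disc, was at 13.45 and 13.53 against 13.48 and 13.59. Des, desmin, the intermediate filament around it, was at 13.45 and 13.45 against 13.40 and 13.44. Cryab, the small heat shock protein that chaperones desmin, was at 14.10 and 14.18 against 14.18 and 14.21. Groups overlapped in Actn2, and the differences of Des (-0.027) and Cryab (0.053) were below their standard errors. Myoz2, which tethers calcineurin at the Z-disc, differed by 0.0076, the stretch-sensor gene Csrp3 by -0.026 and the LIM protein Fhl2 by 0.013. Of the others, the nebulette gene Nebl differed by 0.16, Smpx by 0.13 and the titin cap gene Tcap by 0.088. For Tcap, wild-type 1 (13.72) was the highest and wild-type 2 (13.34) the lowest of the 4 arrays.

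Sorted by isoform instead, the 7 ventricular or pan-cardiac genes (Myl2, Myl3, Actc1, Mybpc3, Tnnt2, Tnni3 and Tnnc1) had a median difference of 0.053, all 7 higher and none past the test, although Myl2 and Tnni3 turned lower after quantile normalization and Tnnt2 with averaged probe sets. The 3 atrial genes had a median of 0.11 and the 3 skeletal ones 0.081. Because none of these genes passed and the classes hold 3 to 7 genes, no difference between classes was tested. Myl7, the atrial regulatory light chain, was at 11.04 and 10.83 in wild-type and 11.14 and 10.95 in knock-in hearts. Myl4, the atrial essential light chain, was at 11.25 and 11.17 against 11.38 and 11.25. Both were higher in the arrays numbered 1 than in those numbered 2, and Myl7 overlapped between genotypes. Its difference of 0.10 became -0.0032 without wild-type 2 and 0.21 without wild-type 1. Other atrial markers did not share a direction. Sln differed by -0.032, the atrial peptide Nppa by 0.058, the atrial growth factor Bmp10 by -0.11, the channel genes Kcnj3 by 0.17 and Kcna5 by -0.27. The 13 measured atrial markers include the 3 atrial genes of the list, Myl4, Myl7 and Mybphl, which were all higher. Of the 13, 8 were higher and 5 lower (11 and 2 with centred arrays). The mean of the 13 was 9.26 and 9.26 in wild-type and 9.32 and 9.29 in knock-in arrays. The 8 genes listed as ventricular markers include Myl2, Myl3 and Myh6. Not all of them are particular to the ventricle, since Myh6 is the adult cardiac heavy chain. They averaged 11.58 and 11.65 against 11.76 and 11.78. All 8 were higher, or 6 after quantile normalization and 7 with averaged probe sets. The differences were uneven, at 0.38 for the dim Hey2 (3.87 to 4.50), 0.33 for Irx4 and 0.31 for Kcnd2. Those of the other genes listed as ventricular markers, Myh6 among them, ran from 0.011 (Pln) to 0.082 (Gja1).

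Skeletal isoforms in the heart samples were dimmer than most of the list and differed among themselves. Tnnt1, slow skeletal troponin T, was at 8.08 and 8.43 in wild-type and 8.45 and 8.50 in knock-in hearts. Its wild-type arrays lay farther apart than the difference of 0.22 between genotypes, which shrank to 0.044 when wild-type 1 was left out and reached 0.40 when wild-type 2 was. Tnni1, the slow skeletal inhibitory troponin that the fetal heart uses before Tnni3, was at 6.53 and 6.41 against 6.56 and 6.54. Together with Tpm2, described above, these were 2 higher and 1 lower, none past the test. Levels within the list of skeletal markers were uneven. The fast skeletal genes Myh1, Myh4 and Actn3 were under 5 in every array, while Casq1 was at 8.31 and 7.999 in wild-type and 7.46 and 7.80 in knock-in hearts, Myl1 at 9.85 and 9.87 against 9.93 and 10.34 and Eno3 at 13.88 and 13.92 against 14.07 and 14.06, besides Acta1, described below. The list of 17 skeletal markers had 7 higher and 10 lower, the reverse split with centred arrays, and a mean of 7.26 and 7.08 in wild-type and 7.14 and 7.23 in knock-in arrays.

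Several probe sets reported 13 of the 33 genes, and they did not always share a direction. Across all 66 probe sets of the list, fitted with the other probe sets of the table, none passed, 3 had an unadjusted limma p under 0.05 in the higher direction and 1 in the lower, where 5.84% of all 45037 probe sets did. The one in the lower direction was a dimmer probe set of Tpm2, at 7.37 and 7.50 against 6.96 and 7.08, a difference of -0.41. Of the 4 Tpm2 probe sets, 3 were lower in both knock-in arrays, the dimmest of them at only 4.05 to 4.25. The second brightest, at 8.45 and 8.56 against 8.59 and 8.55, overlapped with a difference of 0.062. The second Flnc probe set was also lower in both knock-in arrays, with a difference of -0.17. Ldb3 was less even, since its next brightest probe set, at 12.07 and 12.18 against 12.15 and 12.22, differed by 0.058. Pdlim5 had -0.051 in its brightest and -0.24 in its next probe set. The 3 probe sets of Myl3 differed by 0.036, 0.087 and 0.078, and the 2 bright ones of Tnnt2 by 0.053 and 0.089. Dimmer probe sets scattered widely, as for the third Tnnt2 probe set, at 10.08 and 10.34 against 10.25 and 9.40, and 1 of Ttn, at 9.80 and 10.78 against 10.51 and 9.44. In both of these, knock-in 2 was the lowest array, while it was the highest for the brightest probe set of the same gene. The brightest probe sets of Myl3 and Ttn carry the suffix that Affymetrix gives to sets shared by several transcripts, and those of Myom2, Tnnt2 and Flnc the suffix for probes that may bind other sequences.

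**Figure D3:**
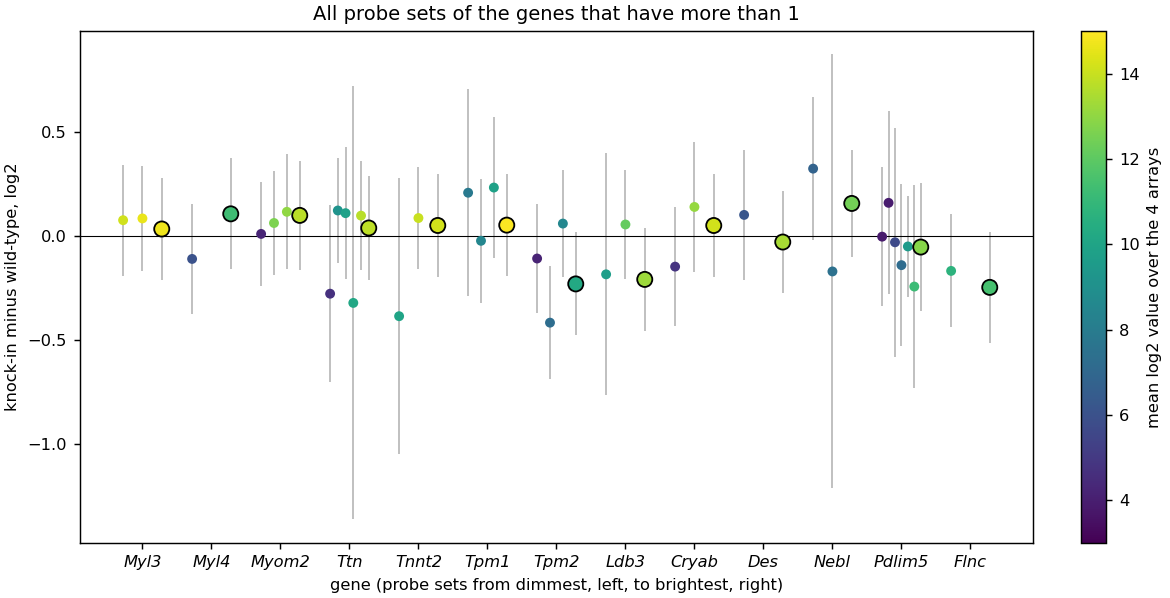
Knock-in minus wild-type difference (log2, vertical axis) with 95% interval (grey line) of every probe set of the 13 genes with more than 1, ordered within a gene from the dimmest to the brightest and coloured by mean log2 value over the 4 arrays. The outlined point is the probe set used for the gene. The 3 points of Myl3 lie near 0, those of Ttn, Tnnt2 and Nebl spread more widely, and 3 of the 4 Tpm2 points lie below 0 with groups apart.

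Some other genes of the contractile apparatus differed by more than any of the 33. Of 38 measured sarcomere and Z-disc genes outside the list, none passed, 3 had an unadjusted limma p under 0.05 in the higher direction (Acta1, Lmod3 and Tmod4) and 2 in the lower (Fhl1 and Tpm3), and the median difference was 0.018. Those 5 are 13.2% of the 38, where 7.39% of all genes met that mark (4.40% higher and 2.99% lower). Acta1, the skeletal actin that the heart makes beside Actc1, was at 12.40 and 12.21 in wild-type and 12.93 and 13.74 in knock-in hearts. The 2.03-fold difference (adjusted limma p of 0.401) was uneven, since knock-in 2 stood well above knock-in 1, and it was 0.62 on the log2 scale without knock-in 2. Fhl1, a LIM protein that binds titin, was at 12.30 and 12.26 against 11.96 and 11.87, 1.29-fold lower with an adjusted limma p of 0.437. Its difference of -0.37 became -0.19 when averaged with a dim probe set at 4.38 to 4.66. The heavy chains, the motor of the thick filament, differed by 0.078 for Myh6 and 0.014 for the slow isoform Myh7. Myh6 differed by -0.21 when averaged with a much dimmer probe set, at 8.12 and 8.39 against 7.18 and 8.35. Among 18 genes of sarcomere chaperones, assembly and turnover, 14 were higher and 4 lower (12 and 6 after quantile normalization). The unadjusted mark was met by 1 of them (5.56%, below the 7.39% of all genes), the small heat shock gene Hspb3 (9.19 and 8.87 against 9.45 and 9.74). Hspb1 differed by -0.26 (-0.14 without wild-type 2), the co-chaperone gene Bag3 by 0.18 and the ubiquitin ligase gene Trim54 by 0.18 (0.10 without wild-type 1). Of 15 transcription factor genes that act on sarcomere promoters, 5 were higher and 10 lower (8 and 7 with centred arrays), with none at an unadjusted p under 0.05 in limma. Srf, which binds the CArG box, differed by -0.14, its coactivator Myocd by -0.25, Mef2d by -0.26, Hand2 by -0.22 and Nkx2-5 by 0.17. The other MEF2 genes differed by 0.22 for Mef2c, with both knock-in arrays higher, and by -0.069 for Mef2a. With averaged probe sets the values were -0.059 for Srf, -0.13 for Mef2d, 0.13 for Mef2c, 0.052 for Mef2a and 0.0097 for Hand2. Without wild-type 2 that of Myocd was -0.13.

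The pointed-end proteins stood out by eye, and their family was drawn up after those values had been seen, so it gets no test of its own. Tropomodulins cap the pointed end and leiomodins, their relatives, nucleate and lengthen filaments there. Lmod3, the leiomodin best known from skeletal muscle, was at 9.81 and 9.99 in wild-type and 10.46 and 10.69 in knock-in hearts. Tmod4, the tropomodulin of skeletal muscle, was at 8.58 and 8.42 against 9.04 and 9.19. Both were farther apart between genotypes than within them, 1.60-fold and 1.54-fold higher, with unadjusted limma p-values of 0.00135 and 0.00133 and adjusted ones of 0.275 and 0.274. Tmod3, the widely expressed member, was at 8.45 and 8.68 against 8.74 and 8.80, higher by 0.21 and by 0.057 when its probe sets were averaged. The next brightest probe sets of Tmod3 differed by 0.17 and 0.20, and the dimmest by -0.090 and -0.20. Lmod1, the smooth muscle leiomodin, differed by 0.023, and the neuronal Tmod2, under 5 in every array, by -0.19, or 0.0052 with averaged probe sets.

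**Figure D4:**
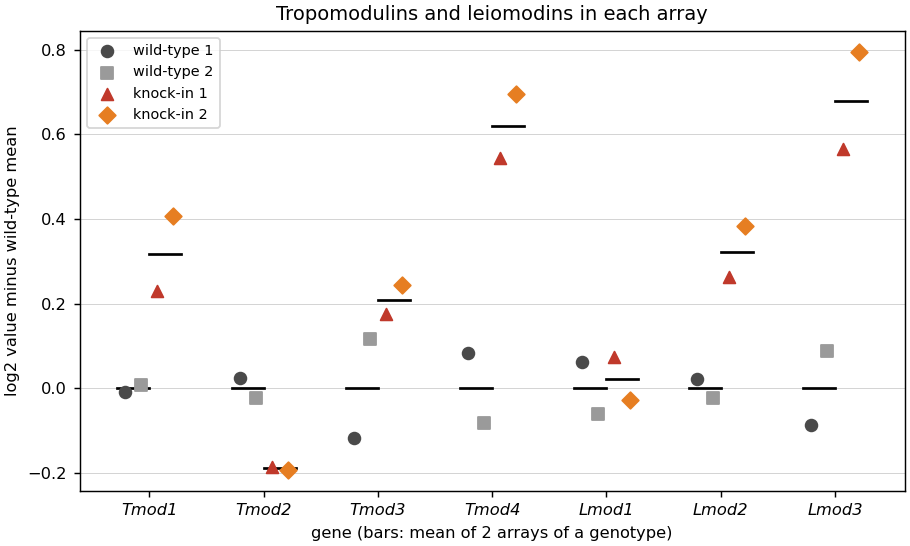
Log2 values of the 7 tropomodulin and leiomodin genes in the 4 arrays after subtraction of the wild-type mean (vertical axis), with bars for the mean of the 2 arrays of a genotype. Both knock-in arrays lie above both wild-type arrays for Tmod1, Tmod3, Tmod4, Lmod2 and Lmod3, the genotypes overlap for Lmod1, and Tmod2 lies below.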

How the data were processed

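Total RNA of mouse heart, 4 samples, was hybridised to Affymetrix 3' arrays. The deposited values are log2 expression per probe set, which the authors made with RMA in Affymetrix Expression Console, per the submitters' processing notes. No version was found in the labels. Per the labels, the wild-type arrays also served another comparison, for which they were normalized again. The values used were those processed together with these knock-in arrays. RMA gives no detection call, and the number of arrays limits the precision.

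Of 45101 probe sets, 64 were controls, 34945 had 1 symbol in the platform annotation, 932 several and 9160 none. Symbols were checked through Entrez IDs against RefSeq (GRCm38.p6), which held 34741 and changed 0. Each gene took the probe set with the highest mean, leaving 18193 genes. Differences were fitted with lmFit and eBayes (limma 3.58.1, R 4.3.3), two-sided, and p-values were adjusted by Benjamini-Hochberg across all of them (threshold 0.05). With 2 arrays a group, the smallest p of an exact permutation test is 0.333. On simulated data (5 runs of 18193 genes, 200 of them changed), 84.6% of 2-fold and 99.2% of 4-fold changes were recovered, with 8.4 false calls per run. Recovery of smaller changes was not measured, and the largest difference in the list, that of Myot, was 1.33-fold. In the real arrays, where 1 gene passed, Serpina1b (4.37-fold higher) and Alb (7.18-fold higher) did not, with adjusted limma p-values of 0.148 and 0.281. The simulated rates therefore cannot tell how often differences of the size seen in the list would be found.

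The genes, the lists and the rule for named genes were chosen with earlier results of these data known. All members were named. Values by array were given for isoform genes and for the 6 genes of smallest p in each direction, and other genes by the 4 smallest p per list. Some genes, among them Srf, Mef2c and Mef2a, were named outside that rule. No list test was run. Alternatives were the replicate block, the variance prior, centring, quantile normalization, a filter on dim genes, averaged probe sets and leaving out each array.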

Additional observations from a re-analysis of the deposited data

How the results depend on the processing

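None of the 33 genes passed under any alternative, with the smallest adjusted limma p of a member between 0.139 (intensity trend and robust prior) and 1. The replicate block, the variance prior and the filter leave each difference as it was. Of 231 differences recomputed under the other 7 settings, 211 kept their direction and 19 reversed, in 14 genes. The remaining 1, Tpm1 after quantile normalization, was at 0 by construction. None of the 14 genes was among the 4 at an unadjusted p under 0.05. The causes of the reversals were not tested. All genes past the threshold numbered 22 with the trend and robust prior, 11 centred, 11 quantile normalized, 11 with averaged probe sets, 7 above the median, 0 with the replicate block and 0 without any 1 array, and those at an unadjusted p under 0.05 ran from 677 to 1966 when each array was left out. Members at an unadjusted p under 0.05 numbered 8 with the trend, 7 above the median, 3 with the replicate block and 1 to 4 without each array, where 8.35%, 12.1%, 6.28% and 3.72% to 10.8% of genes tested did. Same-numbered arrays deviated with r = -0.031 over all genes and -0.15 over those above the median. With 2 arrays a group, these values cannot tell whether the numbers pair the samples. With crossed numbers as a block, chosen after seeing the data, 0 genes passed and 3 members met the unadjusted mark.

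Centring the arrays moved the medians to 0.092 for all members, 0.14 for thick filament, 0.12 for thin filament, 0.049 for Z-disc, 0.092 for ventricular and 0.12 for skeletal genes, with 0.039 for all genes. Quantile normalization gave 0.058 for thick filament, -0.010 for Z-disc and 0.11 for skeletal genes, averaged probe sets 0.067 for thick filament genes, and the filter -0.0040 for the 2 skeletal genes left. Leaving out each array gave 0.020 to 0.068 for all members, 0.054 to 0.12 for thick filament, 0.035 to 0.11 for thin filament, -0.0087 to 0.025 for Z-disc, 0.020 to 0.077 for ventricular, 0.043 to 0.21 for atrial and 0.025 to 0.088 for skeletal genes. Reversals were Csrp3 (0.013) and Des (0.012) centred, Fhl2 (-0.0045), Myl2 (-0.0073), Myoz2 (-0.016) and Tnni3 (-0.012) quantile normalized, and Des (0.038), Tnnt2 (-0.081) and Ttn (-0.036) with averaged probe sets. Without each array the range spanned 0 for Actn2 (-0.012 to 0.099), Fhl2 (-0.0052 to 0.032), Myl7 (-0.0032 to 0.21), Myom1 (-0.36 to 0.11), Myoz2 (-0.0020 to 0.017), Pdlim5 (-0.18 to 0.083), Tcap (-0.10 to 0.28), Tnnc1 (-0.0028 to 0.18) and Tnni3 (-0.016 to 0.035). Where a group keeps 1 array, that array is assumed to vary like the others.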

Other observations

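Outside the contractile genes, markers of other heart cells had median differences of 0.033 for 8 fibroblast, -0.086 for 8 endothelial and 0.097 for 8 macrophage genes, none of which passed. The genes named next were chosen after their values were seen, and none passed. The 3 measured erythrocyte markers had a median of 0.048. Of 4 adipocyte markers, Adipoq, which encodes the hormone adiponectin, was at 5.11 and 5.65 in wild-type and 6.47 and 6.54 in knock-in hearts, while Lep, Retn and Cidec differed by -0.079 to 0.031. Smtn, a smooth muscle actin-binding protein, was at 9.72 and 9.60 against 10.09 and 10.25, opposite in direction to most smooth muscle markers. Irx4, a ventricular transcription factor, was at 9.39 and 9.43 against 9.77 and 9.70, and its adjusted limma p was 0.496. The skeletal calcium buffer gene Casq1 was at 8.31 and 7.999 against 7.46 and 7.80, with both knock-in arrays lower.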
